A study of Mus musculus with 3 samples.

Results

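Replacement histone variants are the histones that cells make outside the burst of histone synthesis that accompanies DNA replication. The 8 genes described here were taken by symbol from the gene list of the count tables, 8 of 32285 listed genes, and all 8 were found and averaged 10 CPM or more over the libraries, where CPM is the UMI count of a gene scaled to equal library totals. They were H2afz and H2afv, which encode the H2A.Z proteins, H2afx (H2A.X), H2afy (macroH2A1), H3f3a and H3f3b, which both encode H3.3, and the linker histone genes H1f0 (H1.0) and H1fx (H1.10). The mouse embryonic stem cells used were of the E14 line (129/Ola background) and were kept on gelatin, with 15% serum and leukemia inhibitory factor in the medium. All groups received 0.007% ethanol, the solvent, starting 24 h after seeding. The control library came from cells given ethanol alone for 6 h, and the treated libraries came from cells given 250 µg/mL cycloheximide for 3 h or for 6 h. Cycloheximide blocks the elongation step of translation. Cells were frozen after harvest, and 3′ ends of polyadenylated RNA were counted in single cells by unique molecular identifiers (UMIs), each of which marks 1 captured molecule.

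Each group had 1 library from 1 cell line, so no difference below has a replicate check and no test between conditions was made. The control was exposed for 6 h, no 3 h ethanol control was analysed here, and both treated libraries are set against the same control library. Intervals are 95% intervals for counting error only. A gene is said to have risen or fallen where its summed CPM ratio passed 1.5-fold, and other differences are given as values. Over the 7608 genes that averaged 10 CPM or more, 16.0% passed this fold at 3 h against control, 29.9% at 6 h against control and 4.26% at 6 h against 3 h.

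In a nucleosome DNA wraps around H2A, H2B, H3 and H4, and a linker histone binds where the DNA enters and leaves. The bulk of core and H1 histone comes from clustered genes whose messages end in a stem-loop and are made in S phase. Replacement variants come from single genes, mostly with polyadenylated messages, and are put into chromatin by their own chaperones at any time. H2A.Z lies beside active promoters and is exchanged by the SRCAP and EP400 complexes. H3.3 is laid down at active genes through HIRA, and at telomeres and other repeats through DAXX and ATRX, a route known from embryonic stem cells. H2A.X is phosphorylated around DNA breaks, macroH2A is known for silent chromatin such as the inactive X chromosome, and H1.0 is known for accumulating in cells that stop dividing and differentiate.

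The rule behind the list describes these genes as polyadenylated and not replication-dependent, and the transcripts of the GENCODE M21 annotation (GRCm38) were read against that description. The stem-loop of replication-dependent histone messages was searched on the transcript strand as a 16-base element with a stem of 6 base pairs around a loop of 4 bases, which opens with GG, closes with CC and has CT and AG on the sides of the loop. It was present in 46 of 67 annotated genes with a clustered histone symbol (68.7%) and in 273 of all 55341 genes (0.493%). Among the 8 replacement variants H2afx alone carried it, 47 bases after the stop codon in a 3′ UTR of 884 bases that also ends with the polyadenylation signal ATTAAA. The H2afx element is shown beside those of the clustered genes Hist1h2ae and Hist3h2a, both described further on, and the capitals mark the whole element.
H2afx: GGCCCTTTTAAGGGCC
Hist1h2ae: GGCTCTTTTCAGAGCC
Hist3h2a: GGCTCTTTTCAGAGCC
H2A.X is a known case of a message made in both a stem-loop and a polyadenylated form. Only the polyadenylated form is captured well by this assay, so H2afx values describe that form. The polyadenylation signal stood in the last 50 bases of the chosen transcript for 6 of the 8 genes, as AATAAA in 4 and as ATTAAA in H2afz and H2afx, the exceptions being H2afy and H3f3b.

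The pairs H3f3a and H3f3b, and H2afz and H2afv, differ in their messages while their proteins are identical or nearly so. Over the coding sequence H3f3a and H3f3b shared 313 of 408 bases (76.7%), and H2afz and H2afv shared 304 of 384 (79.2%). The first 60 coding bases are shown for each gene because they let the messages of a pair be told apart, and capitals mark the 13 bases at which the partners differ.
H3f3a coding start: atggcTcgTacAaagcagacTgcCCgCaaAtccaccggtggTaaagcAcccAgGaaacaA
H3f3b coding start: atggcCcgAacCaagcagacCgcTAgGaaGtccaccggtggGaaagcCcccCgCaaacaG
H2afz coding start: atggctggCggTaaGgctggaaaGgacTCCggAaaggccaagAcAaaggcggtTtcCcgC
H2afv coding start: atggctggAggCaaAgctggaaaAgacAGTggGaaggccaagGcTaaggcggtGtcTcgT
The 3′ ends, where the assay counts, held no shared run of 50 bases with another annotated gene for 6 of the 8 variants. For H2afz 30.4% and for H3f3a 26.2% of the 50-base runs in the last 500 bases also occurred in other annotated genes, 4 for H2afz and 38 for H3f3a. None of those other genes was in the count tables, and how the counting treated such reads is not given in the sources used here, so levels of H2afz and H3f3a are uncertain in this respect.

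The promoter windows are shown for the genes whose transcripts rose with cycloheximide (H3f3b, H1f0 and H1fx) and for H3f3a, which encodes the same protein as H3f3b. Windows run from 250 bases before to 50 bases after the RefSeq transcription start on GRCm38.p6, in the direction of the gene. Windows were matched for 7 of the 8 genes, all but H2afx. RefSeq and GENCODE starts differ for some of them. The H3f3b, H3f3a and H2afy windows lie inside the longer GENCODE genes, and the H1f0 window ends before the GENCODE start. Capitals mark 3 motifs on either strand, the CCAAT box, the TATA box (TATAAA) and the GC box (GGGCGG). The H3f3b window is chr11:116024455-116024754 (minus strand), the H3f3a window chr1:180813556-180813855 (minus strand), the H1f0 window chr15:79027962-79028261 (plus strand) and the H1fx window chr6:87981433-87981732 (minus strand).
H3f3b promoter: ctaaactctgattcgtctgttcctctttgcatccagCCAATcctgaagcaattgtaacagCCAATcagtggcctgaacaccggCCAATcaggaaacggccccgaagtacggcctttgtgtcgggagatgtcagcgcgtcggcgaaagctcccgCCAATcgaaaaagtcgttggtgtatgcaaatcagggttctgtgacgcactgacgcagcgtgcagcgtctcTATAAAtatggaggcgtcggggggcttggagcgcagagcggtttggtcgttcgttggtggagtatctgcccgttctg
H3f3a promoter: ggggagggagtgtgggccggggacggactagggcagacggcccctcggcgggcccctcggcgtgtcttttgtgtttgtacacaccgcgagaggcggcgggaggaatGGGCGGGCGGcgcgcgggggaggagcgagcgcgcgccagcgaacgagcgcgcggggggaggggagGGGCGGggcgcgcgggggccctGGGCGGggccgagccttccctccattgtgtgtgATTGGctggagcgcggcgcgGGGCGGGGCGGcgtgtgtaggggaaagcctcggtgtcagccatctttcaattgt
H1f0 promoter: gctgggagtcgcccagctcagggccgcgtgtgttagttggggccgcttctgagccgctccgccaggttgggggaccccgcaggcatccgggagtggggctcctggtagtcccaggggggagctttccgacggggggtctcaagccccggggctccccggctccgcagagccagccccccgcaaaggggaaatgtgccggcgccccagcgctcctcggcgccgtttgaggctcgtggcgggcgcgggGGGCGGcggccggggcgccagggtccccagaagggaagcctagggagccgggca
H1fx promoter: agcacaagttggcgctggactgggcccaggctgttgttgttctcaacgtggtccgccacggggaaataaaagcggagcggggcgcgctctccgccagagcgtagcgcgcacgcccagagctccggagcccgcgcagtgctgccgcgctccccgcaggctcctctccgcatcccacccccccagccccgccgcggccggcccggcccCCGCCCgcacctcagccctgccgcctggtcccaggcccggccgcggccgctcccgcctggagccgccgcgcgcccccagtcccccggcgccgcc
The H3f3b window held 4 CCAAT boxes, a TATA box that starts 27 bases before the transcription start, 2 copies of TGACG and no GC box. The H3f3a window held 1 CCAAT box, 6 GC boxes, some overlapping, and no TATA box. H1f0 and H1fx each held a single GC box and none of the other motifs searched. The H2A.Z pair was alike in this respect, with 3 CCAAT boxes and 2 GC boxes in H2afz, and 4 CCAAT boxes and 1 GC box in H2afv. The H2afy window held 2 GC boxes and 1 TGACG. Of 32851 promoter windows of the same length, 37.4% held the CCAAT box, 13.6% the TATA box, 35.7% the GC box and 20.8% the motif TGACG, each searched on both strands. The motif AAACACA was held by 7.18% of all windows and once by H3f3a, and the motif TTTNGCGC by 1.38% of all windows and by none of the 7.

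In the control, 3 h and 6 h libraries 2187, 1739 and 2554 cells were kept, and their median depths were 43160, 51726 and 46200 UMIs. Mitochondrial transcripts made up 4.57%, 3.51% and 2.94% of the cells' UMIs. No more than 3 cell barcodes were shared by any pair of libraries. All 10 embryonic stem cell markers (Pou5f1, Sox2, Nanog and others) passed 10 CPM, with summed levels of 7260, 8205 and 7318 CPM. Most of that sum came from Dppa5a, at 4771, 5327 and 5475 CPM. At 6 h against control 2 of the 10 had a log2 ratio above 0, and the median was -0.24, beside 0.17 over all genes. In that comparison 3 of the 10 fell (Zfp42, Utf1 and Fgf4), where 7.79% of all genes fell. These 3 and Dppa5a were named after their values were seen. At 6 h against 3 h 5 of the 10 fell, where 2.52% of all genes fell. Markers of fibroblast feeders summed to 2.48, 1.62 and 1.29 CPM, with Col3a1, Lum and Postn at 0 in every library, those of trophoblast to 30.9, 23.4 and 18.8 CPM, most of it from Krt8, and with Elf5 at 0 in every library. Those of 2-cell-like cells, endoderm, mesoderm and neuroectoderm stayed at or below 23.6 CPM. The part of these other markers in the differences below was not tested.

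Against this background 1 of the 8 variants rose past 1.5-fold at 3 h (H1f0), where 13.9% of all genes rose and 2.13% fell. At 6 h 3 of 8 rose (H1f0, H1fx and H3f3b), where 22.1% of all genes rose and 7.79% fell. None of the 8 fell at either time on the CPM scale. Counts this small are near what those shares would give among 8 genes. The 8 variants together held 7092, 7634 and 7838 CPM, a log2 difference of 0.14 at 6 h beside a median of 0.17 over all genes. The sum was dominated by H2afz, which made up 45.5%, 41.8% and 36.8% of the UMIs of the 8 genes in the control, 3 h and 6 h libraries. H3f3b made up 20.3%, 24.9% and 29.6%.

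**Figure D1:**
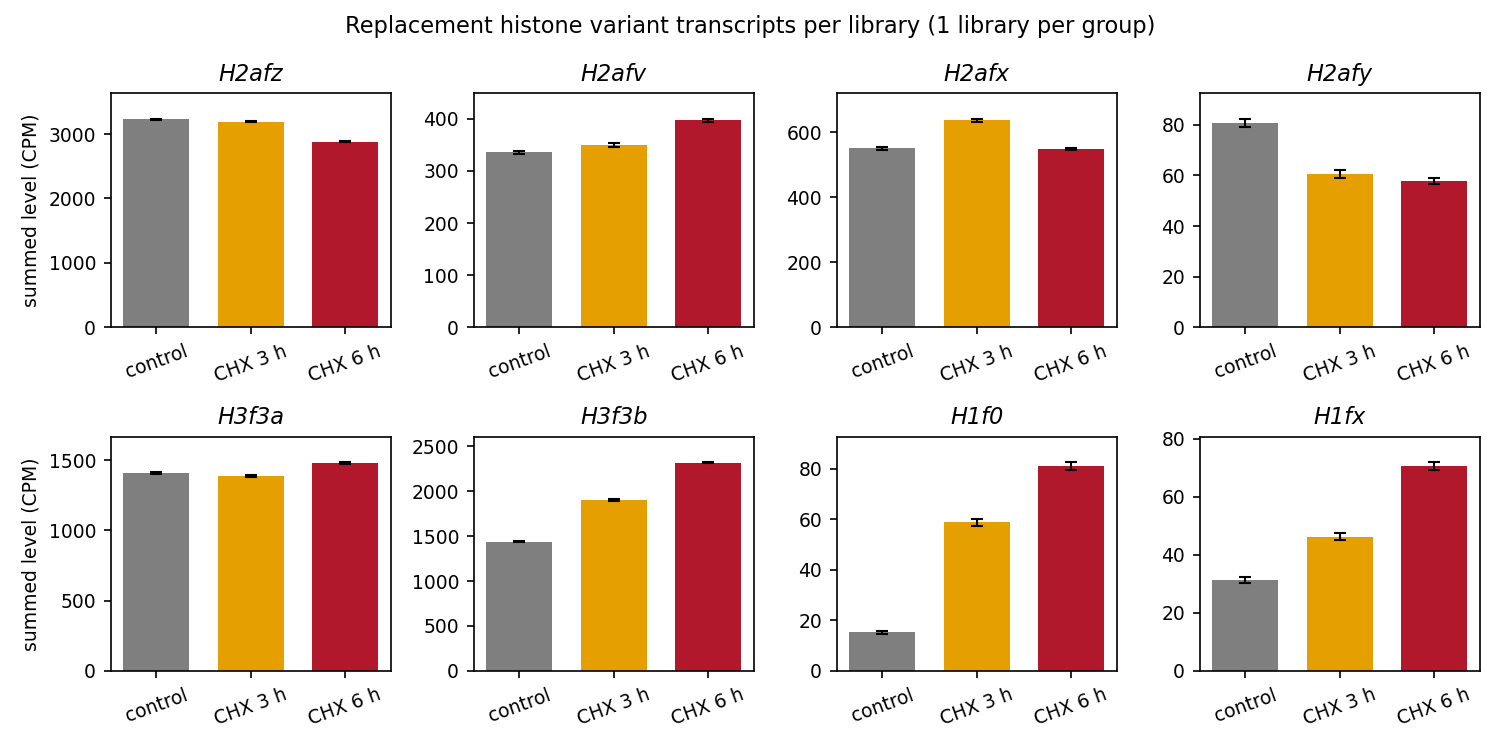
Summed level of each replacement histone variant in CPM (linear axis from 0, a scale of its own for each gene) in the control, 3 h and 6 h libraries, 1 library per group; error bars are exact 95% Poisson intervals for counting error only. H1f0 goes from 15.2 to 81.2 CPM and H1fx from 31.3 to 70.5 CPM, while H2afz stays between 2883 and 3229 CPM.

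Scaling matters for the smaller differences. The median log2 ratio over all 7608 genes was 0.11 at 3 h and 0.17 at 6 h against control on the CPM scale, and the TMM factors of edgeR, which centre on the bulk of genes, moved every log2 ratio by -0.11 at 3 h and by -0.16 at 6 h. Under TMM factors, of all genes past the fold 73.1% were higher at 3 h rather than 86.7%, 56.5% rather than 73.9% at 6 h against control, and 30.8% rather than 40.7% at 6 h against 3 h. With these factors the 3 variants past the fold at 6 h were H1f0 and H1fx, both higher, and H2afy, lower. Of all 7608 genes 27.6% passed it at 6 h with these factors, 1187 higher and 913 lower. H3f3b missed the fold with TMM factors, at a log2 ratio of 0.53, and H2afy passed it at -0.64.

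**Figure D2:**
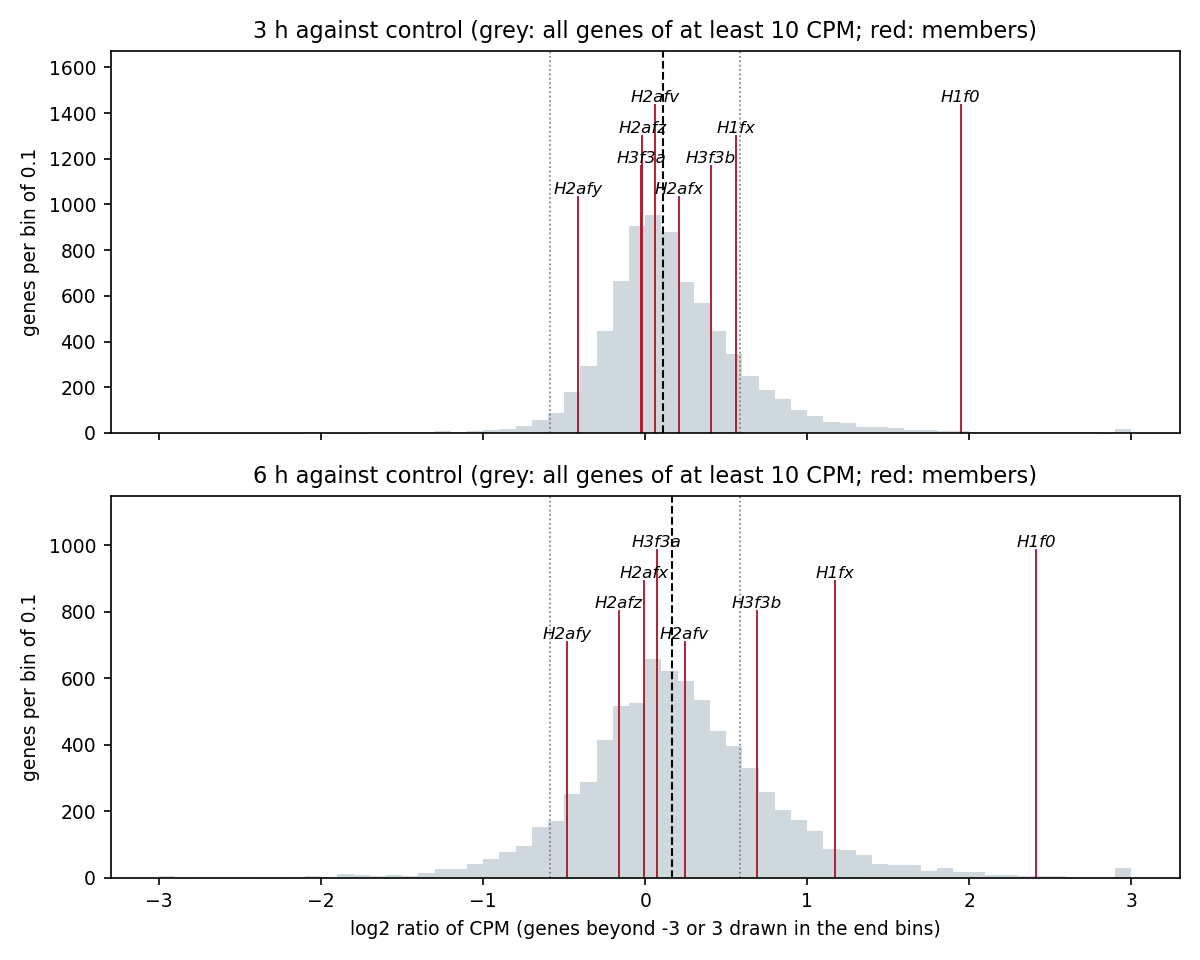
Distribution of log2 CPM ratios over the 7608 genes of at least 10 CPM (grey, genes per bin of 0.1) at 3 h (top) and 6 h (bottom) against control, with the 8 variants as red lines, the median of all genes dashed and the 1.5-fold limits dotted; line heights only separate the labels. H1f0 lies far to the right in both panels, at 1.95 and 2.41, and H2afy lies farthest left of the variants, at -0.42 and -0.49.

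The linker histone genes showed the largest rises of the group. H1f0 (ENSMUSG00000096210, chr15:79028450-79030504 on GRCm38, plus strand, 1 exon) stood at 15.2 CPM (interval 14.5 to 16.0) in the control, 58.8 CPM (57.3 to 60.3) at 3 h and 81.2 CPM (79.7 to 82.7) at 6 h. The control was lowest, 6 h highest, and no intervals overlapped. H1f0 was 3.86-fold higher at 3 h (log2 1.95, 1.87 to 2.03) and 5.33-fold higher at 6 h (log2 2.41, 2.34 to 2.49) than in the control. At 6 h 99.3% of all genes had a lower ratio than H1f0. From 3 h to 6 h its log2 ratio was 0.47, which did not pass the fold but was above that of 95.8% of genes.

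H1fx (ENSMUSG00000044927, chr6:87980421-87981637, minus strand, 1 exon), the other linker histone of the list, stood at 31.3 CPM (30.3 to 32.4) in the control, 46.2 CPM (44.9 to 47.5) at 3 h and 70.5 CPM (69.1 to 71.9) at 6 h. Its order across libraries was that of H1f0, again with no overlap of intervals. At 3 h the log2 ratio to control was 0.56 (0.50 to 0.62), just under the fold, and at 6 h it was 1.17 (1.11 to 1.23), a 2.25-fold rise. H1fx was the single variant past the fold at 6 h against 3 h, at 1.53-fold, where 1.74% of all genes were higher and 2.52% lower. That call was lost with TMM factors (log2 0.57) and per cell (log2 0.45). In the control H1fx exceeded H1f0, and at both treated times H1f0 exceeded H1fx, so the order of these genes was turned. These levels count 3′ ends and so need no correction for transcript length. Summed, the linker pair went from 46.6 to 105 and 152 CPM, and its share of the UMIs of the 8 genes remained small, with 1.04% for H1f0 and 0.8996% for H1fx at 6 h.

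Antisense genes overlap both linker genes and could add reads where strand is not kept. Gm49544 (over H1f0) held 3, 5 and 7 UMIs and Gm5577 (over H1fx) held 154, 87 and 146 UMIs in the control, 3 h and 6 h libraries. The linker genes themselves held 1698, 6281 and 11389 UMIs (H1f0) and 3493, 4938 and 9894 UMIs (H1fx). Counts on the antisense genes were small beside those on the linker genes. They do not measure antisense reads that may have been counted on the linker genes, so that part was not tested.

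In single cells thinned to 15000 UMIs, so that all cells have equal depth and none is left out, 18.8% of control cells had at least 1 H1f0 UMI, 48.5% at 3 h and 60.3% at 6 h. Unthinned, the shares were 45.6%, 79.2% and 85.2%. For H1fx the thinned shares were 36.0%, 45.0% and 57.8%, and the unthinned ones 69.6%, 80.2% and 86.3%. Cells with exactly 3 H1f0 UMIs after thinning were 0.320%, 5.75% and 7.67% of the control, 3 h and 6 h cells. Both the share of cells with a UMI and the share with 3 UMIs were thus higher in the treated libraries. Free RNA, read from barcodes of 10 to 100 UMIs, held H1f0 at 15.6, 56.6 and 78.3 CPM and H1fx at 33.3, 57.5 and 71.4 CPM, close to the cells' own levels. No cell type that lacks these genes was at hand for a background share. With free RNA subtracted at 10% of the summed cell counts, the same 3 variants were past the fold at 6 h. Because free RNA held levels close to those of the cells, this subtraction could hardly change the ratios of the linker genes. The shares of cells with a UMI were not recomputed with it, so the part of free RNA in them was not tested.

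**Figure D3:**
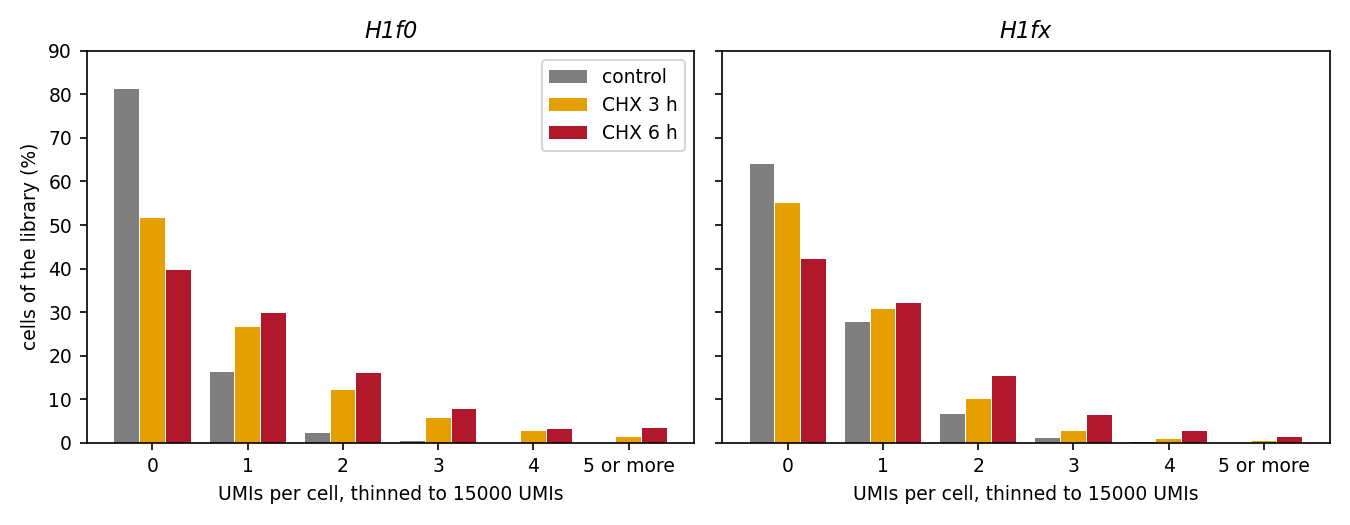
Share of cells (percent, linear axis) by the number of H1f0 (left) and H1fx (right) UMIs per cell after thinning every cell to 15000 UMIs, in the control, 3 h and 6 h libraries. For H1f0 the share of cells with 0 UMIs goes from 81.2% in the control to 51.5% at 3 h and 39.7% at 6 h, and for H1fx from 64.0% to 55.0% and 42.2%.

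The H3.3 genes parted from each other. H3f3b (ENSMUSG00000016559, chr11:116021912-116027962, minus strand) stood at 1438 CPM (1431 to 1445) in the control, 1904 CPM (1896 to 1912) at 3 h and 2318 CPM (2310 to 2326) at 6 h. H3f3a (ENSMUSG00000060743, chr1:180800832-180813943, minus strand) stood at 1411 CPM (1404 to 1418), 1386 CPM (1379 to 1393) and 1481 CPM (1475 to 1487). H3f3b was highest at 6 h and lowest in the control, while H3f3a stayed between 1386 and 1481 CPM. The log2 ratio of H3f3b to control was 0.40 at 3 h and 0.69 (0.68 to 0.70) at 6 h, the latter a 1.61-fold rise that 82.5% of all genes lay below. For H3f3a the values were -0.026 at 3 h and 0.070 at 6 h, and the sign of each depends on the scaling, with -0.085 at 6 h under TMM factors and 0.24 at 3 h per cell.

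The share of H3f3b in the H3.3 UMIs does not depend on the scaling of the libraries. It was 50.5% (50.3 to 50.7) in the control, 57.9% (57.7 to 58.0) at 3 h and 61.0% (60.9 to 61.1) at 6 h. Near equality in the control thus became a ratio of 1.57 UMIs of H3f3b for each UMI of H3f3a at 6 h. These shares carry the uncertainty of the H3f3a level given above, from sequence shared with other genes. The change at 6 h was 10.5 percentage points, and it lay between 10.4 and 10.7 points under the other cell limits, without cells above 2 times the median UMIs and with free RNA subtracted. Summed, the H3.3 pair held 2849, 3290 and 3799 CPM, a log2 ratio of 0.42 at 6 h. H3f3aos, antisense to H3f3a, held at most 46 UMIs.

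The H2A.Z genes were the most abundant variants, mainly through H2afz. H2afz (ENSMUSG00000037894, chr3:137864487-137866922, plus strand) stood at 3229 CPM (3219 to 3240) in the control, 3191 CPM (3180 to 3201) at 3 h and 2883 CPM (2874 to 2892) at 6 h. It was lowest at 6 h, with a log2 ratio of -0.16 to control and -0.15 to 3 h, and 24.2% of all genes lay lower at 6 h against control. H2afv (ENSMUSG00000041126, chr11:6427229-6444443, minus strand) stood at 336 CPM (332 to 339), 350 CPM (347 to 354) and 397 CPM (394 to 401), with log2 values against control of 0.062 and 0.24. Neither gene passed the fold, and the sign of H2afv at 3 h turned with TMM factors (-0.049), as did that of H2afz at 3 h per cell (0.25, beside -0.017 on the CPM scale).

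Within the pair H2afz made up 90.6% (90.5 to 90.7) of the UMIs in the control, 90.1% (90.01 to 90.20) at 3 h and 87.9% (87.80 to 87.99) at 6 h. The minor gene thus gained at 6 h, by a change in the H2afz share of -2.69 percentage points. The H2afz shares likewise carry the uncertainty of its level given above. The summed pair held 3565, 3541 and 3281 CPM.

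**Figure D4:**
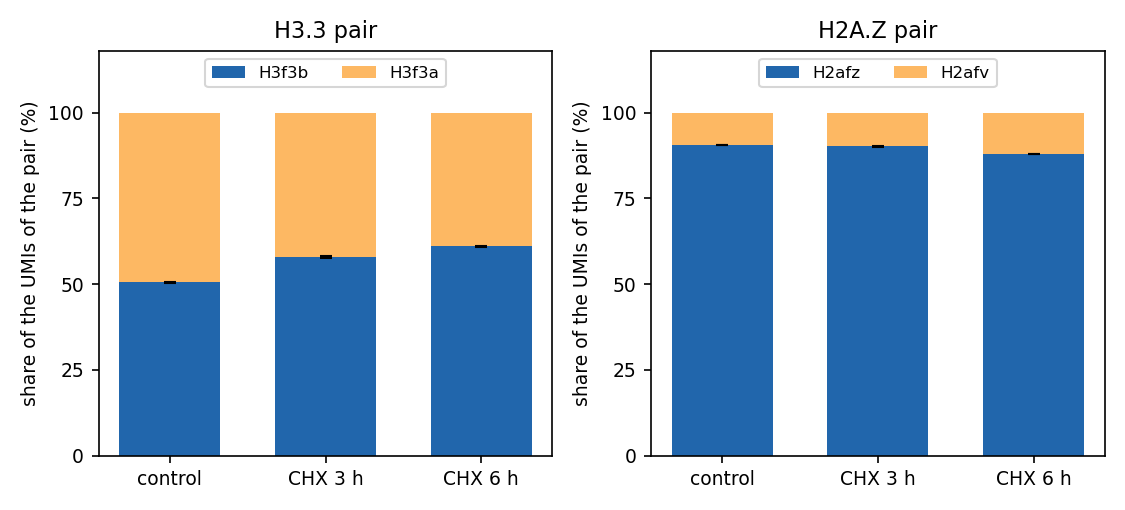
Share of each gene in the UMIs of its pair (percent, axis from 0), H3f3b and H3f3a on the left and H2afz and H2afv on the right, in the control, 3 h and 6 h libraries; error bars are exact 95% Clopper-Pearson intervals for counting error only. H3f3b rises from 50.5% to 61.0% of the H3.3 UMIs, and H2afz goes from 90.6% to 87.9% of the H2A.Z UMIs.

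H2afx, which encodes the variant phosphorylated at DNA breaks (ENSMUSG00000049932, chr9:44334694-44336077, plus strand, 1 exon), stood at 551 CPM (547 to 556) in the control, 638 CPM (633 to 643) at 3 h and 549 CPM (546 to 553) at 6 h. The 3 h library was highest, and the intervals of the control and 6 h overlapped. The log2 ratio to control was 0.21 at 3 h and -0.0049 (-0.020 to 0.010) at 6 h, and it was -0.22 at 6 h against 3 h. None of these passed the fold. The 6 h value differed with cell depth. In the cells with the fewest UMIs (the lowest of 3 equal groups in each library) it was -0.18, in the middle group -0.043 and in the deepest cells 0.059.

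H2afy, which encodes macroH2A1 (ENSMUSG00000015937, chr13:56073619-56136361, minus strand), was the variant with the lowest ratios. It stood at 80.7 CPM (79.1 to 82.4) in the control, 60.5 CPM (59.1 to 62.0) at 3 h and 57.7 CPM (56.4 to 59.0) at 6 h. The control was highest, and the 3 h interval touched neither of the others. The log2 ratio to control was -0.42 (-0.46 to -0.37) at 3 h and -0.49 (-0.53 to -0.44) at 6 h, inside the fold on the CPM scale and past it at 6 h with TMM factors. At 6 h 10.1% of all genes lay lower. Thinned cells with an H2afy UMI were 66.2%, 57.5% and 56.5% of the control, 3 h and 6 h cells. The splice forms of macroH2A1 share this gene's count and could not be told apart.

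The depth of the cells moved the ratios of H1f0, H1fx and H3f3b little. Over the 3 depth groups the log2 ratio at 6 h against control ranged from 2.33 to 2.46 for H1f0, from 1.14 to 1.22 for H1fx and from 0.66 to 0.71 for H3f3b. As mean UMIs per cell, the log2 values at 6 h were 2.52, 1.28 and 0.80. At 3 h the per-cell values of H1fx (0.83) and H3f3b (0.67) passed the fold as well.

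The replication-dependent genes and a further list of histone genes give a scale for these differences. The replication-dependent list held 61 of the 67 genes with a clustered histone symbol (Hist1 to Hist4), leaving out 6 that stand in the list of the next paragraph. Its genes summed to 2726, 6269 and 6526 CPM. Since the assay counts polyadenylated RNA, these levels and the ratios below do not describe messages that end in a stem-loop. Of 34 genes of this list of at least 10 CPM, 31 rose at 3 h and 29 at 6 h, where 13.9% and 22.1% of all genes rose. Their median log2 ratios were 1.96 and 2.06, beside 0.11 and 0.17 over all genes. The floor is a mean over the libraries, so some of the 34 met it only through the treated libraries. Hist1h2ak, named after its values were seen, is such a gene, at 3.54, 19.3 and 24.4 CPM. The rise of such genes was set by the floor, so these counts and medians overstate the rise of the list. Hist1h2ae, a clustered H2A gene, went from 289 to 1154 and 1182 CPM. The 1 gene of the list that fell at 6 h, named after its values were seen, was Hist1h1b, an H1 gene, at 458, 476 and 281 CPM. In polyadenylated UMIs the 8 replacement variants stood at 7092 CPM in the control against 2726 CPM for these 61 genes, and at 7838 against 6526 CPM in the 6 h library.

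A further list held 18 histone genes, taken as variant or testis genes without a check of their replication dependence. Of these, 15 were in the count tables and 7 had at least 10 CPM. H2afj, an H2A variant gene, stood at 285, 314 and 335 CPM, and H2afy2, which encodes macroH2A2, at 37.3, 37.4 and 44.5 CPM. Cenpa, the centromeric H3, stood at 132, 145 and 143 CPM. None of these 3 passed the fold, with log2 ratios of 0.23, 0.25 and 0.11 at 6 h. The other 4 of the 7 rose at 6 h, where 22.1% of all genes rose. Of these, Hist1h2aa, Hist3h2a and Hist3h2ba were under 10 CPM in the control and met the floor only through the treated libraries. Their rise was thus set by the floor, and the count of 4 says little about the list. All 4 have clustered symbols, so their rise cannot be read as one of genes outside replication. Hist1h2aa went from 0.296 to 18.3 and 49.2 CPM (log2 7.35 at 6 h), Hist3h2a from 5.07 to 129 and 224 CPM (5.47) and Hist3h2ba from 4.93 to 36.9 and 59.9 CPM (3.60). Hist1h4i, named after its values were seen, went from 17.0 to 65.8 and 66.4 CPM (1.97). Hist3h2a carries the stem-loop shown above and lies inside the span of Trim17 on the same strand, so its count is uncertain in that respect.

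The genes that handle the variants were counted against the shares of all genes at 6 h, 22.1% higher and 7.79% lower. Of 21 genes of H2A.Z exchange, 2 rose and 1 fell at 6 h, with a median of 0.030, below the 0.17 of all genes. Those that rose were Ino80, the ATPase of the INO80 remodelling complex, at 27.0, 43.0 and 43.5 CPM (log2 0.69 at 6 h), and Ing3, at 27.1, 36.1 and 40.9 CPM (0.59), the latter named after its values were seen. Both missed the fold with TMM factors, at 0.53 and 0.44. Nap1l1, an H2A and H2B chaperone, fell from 717 to 529 and 441 CPM (-0.70), the lowest ratio among the chaperone and variant lists. At 3 h 2 of the 21 rose, where 13.9% of all genes rose. They were Ino80 and Epc1 (18.0 and 28.5 CPM), the latter named after its values were seen. Neither passed the fold with TMM factors (0.56 and 0.55).

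Srcap, the ATPase of the complex that inserts H2A.Z, stood at 34.5, 33.8 and 25.5 CPM (log2 -0.43 at 6 h, and -0.59, past the fold, with TMM factors). Ep400, the ATPase of the related inserting complex, stood at 58.9, 62.7 and 59.4 CPM. Anp32e, a chaperone that takes H2A.Z off chromatin, stood at 150, 135 and 116 CPM (-0.37). None of these 3 passed the fold on the CPM scale.

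Of the 8 genes of H3.3 deposition, 1 rose and 1 fell at 6 h, with a median of 0.099. Hira, the scaffold of the H3.3 complex at active genes, fell from 35.1 to 27.4 and 22.2 CPM (log2 -0.66 at 6 h). Asf1a, which passes H3 and H4 to HIRA and was named after its values were seen, rose from 99.5 to 146 and 206 CPM (1.05). Atrx, the remodeller of the other H3.3 route, stood at 247, 211 and 171 CPM (-0.53, and -0.69, past the fold, with TMM factors). Its partner Daxx stood at 59.3, 66.1 and 61.8 CPM (0.059). The members of these complexes thus went in different directions in the library in which H3f3b was highest.

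None of the 13 shared and replication-coupled chaperones passed the fold at either time, with a median of 0.037 at 6 h. Among the 8 genes that read or write macroH2A and H2A.X, 2 rose at 6 h, both named after their values were seen. They were Ppm1d, a phosphatase of the DNA damage response, at 24.6, 36.6 and 42.5 CPM (0.79), and Prkdc, a kinase that phosphorylates H2A.X, at 17.9, 23.0 and 30.2 CPM (0.75). Parp1, also named after its values were seen, stood at 543, 438 and 385 CPM (-0.49, and -0.65, past the fold, with TMM factors). The median of this list was 0.22, beside 0.17 over all genes.

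Cells of a library were also compared with each other. Cell-to-cell variability was taken as the excess squared coefficient of variation on thinned cells, that is the variance beyond counting noise over the squared mean. For H3f3b it was 0.034 in control cells against 0.065 and 0.061 in the 3 h and 6 h libraries, while for H3f3a it stayed between 0.026 and 0.027. For H2afz it was 0.036, 0.041 and 0.041. H2afx was the most variable of the abundant variants, at 0.108, 0.121 and 0.176. For H1f0 the values were 0.450, 0.856 and 0.701, but in the control the value moved by 0.513 over 5 random thinnings, so it is not a usable baseline. H1f0 at 3 h and 6 h was the most variable of all 8 genes.

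H2afx was higher in cells with more counts of G2M genes. Across thinned cells Pearson's r of its log counts with the summed G2M list (51 genes such as Ube2c, Cdk1 and Top2a) was 0.30 over 2187 control cells, 0.28 over 1739 cells at 3 h and 0.35 over 2554 cells at 6 h. Cells of 1 library share their preparation and depth after thinning, so these values describe the libraries. The list summed to 9060, 8088 and 8050 CPM in the control, 3 h and 6 h libraries. Of this, Hmgb2 alone, named after its values were seen, held 1872, 1894 and 2118 CPM. The part of Hmgb2 in the values by G2M counts was not tested. From the lowest to the highest of 3 equal groups of cells by G2M counts, H2afx went from 456 to 609 CPM in the control, from 553 to 713 CPM at 3 h and from 440 to 622 CPM at 6 h. The differences were 0.42, 0.37 and 0.50 on the log2 scale. For the other 7 variants r with the G2M list lay between -0.10 and 0.08 in all 3 libraries.

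With the S phase list (40 genes such as Mcm5 and Pcna) the order of H2afx turned. In the control it stood at 589 CPM in the cells with the fewest S phase counts and 473 CPM in those with the most, a log2 difference of -0.32 (-0.37 to -0.27). At 3 h the values were 644 and 573 CPM (-0.17), and at 6 h they were 491 and 529 CPM (0.11, 0.06 to 0.16). H2afx was thus lower in S-rich cells of the control and higher in those of the 6 h library. The 2 lists were themselves related differently, with r between S and G2M counts of -0.14 and -0.12 in the control and 3 h libraries but 0.16 at 6 h. At 6 h against control 16 of 39 tested S list genes had risen (median 0.46 on the log2 scale) and 12 of 51 G2M list genes had fallen (median -0.24), where 22.1% of all genes rose and 7.79% fell. With TMM factors these counts were 8 and 17. Of all 7608 genes, 1187 were higher and 913 lower past the fold with these factors, beside 1678 and 593 on the CPM scale. The part of these shifts in the H2afx pattern was not tested.

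Counts of clustered histone messages gave a further pattern. H3f3b had r of 0.22, 0.22 and 0.25 with the summed replication-dependent histones in the control, 3 h and 6 h libraries, and H1f0 had 0.09, 0.20 and 0.26. H2afx went from -0.07 to 0.17 and 0.29. H3f3a, which encodes the same protein as H3f3b, stayed between 0.01 and 0.06. H1fx, the other variant that rose at 6 h, had lower values, at 0.0054, 0.041 and 0.13. The r for H1f0 rests on means of 0.218, 0.872 and 1.19 thinned UMIs per cell.

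**Figure D5:**
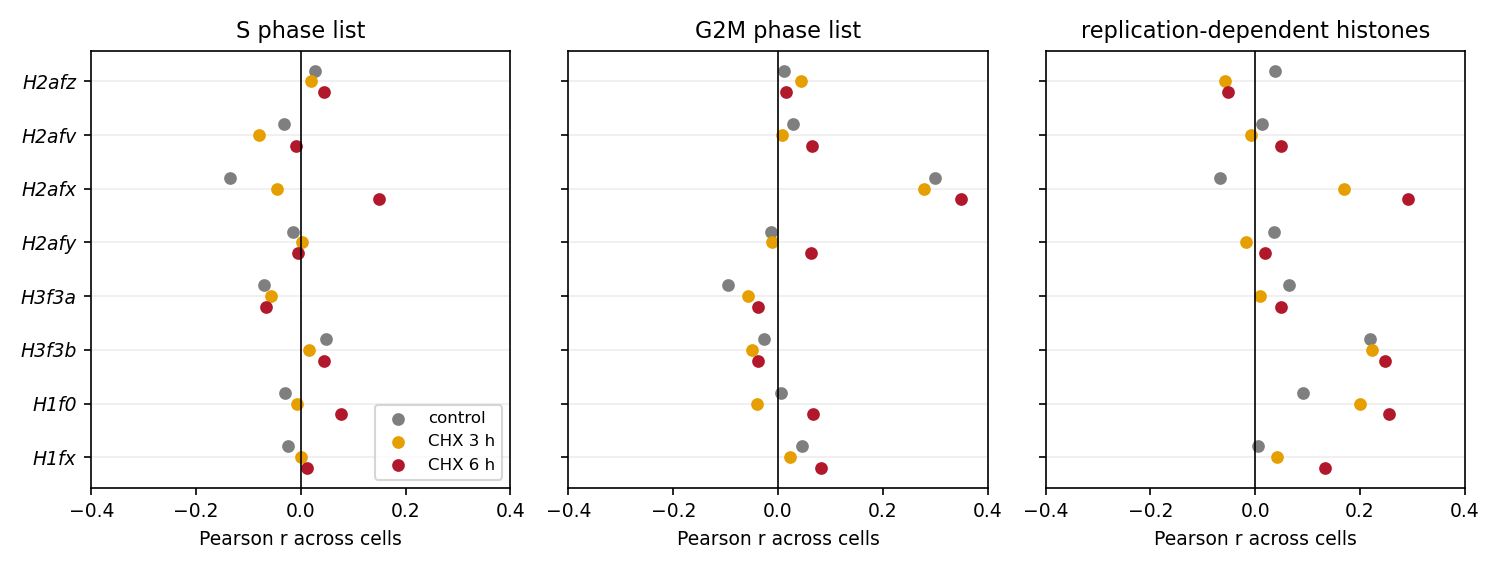
Pearson's r across thinned cells (linear axis) between each variant and the summed counts of the S phase list (left), the G2M list (middle) and the replication-dependent histones (right), with 1 point for each of the control, 3 h and 6 h libraries; no test was made. H2afx stands apart in the middle panel at 0.28 to 0.35, and on the right H3f3b is at 0.22 to 0.25 in every library.

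Within the groups of cells by G2M counts the rises were present. In cells lowest for G2M counts the log2 ratio at 6 h against control was 2.26 for H1f0, 1.05 for H1fx and 0.67 for H3f3b, and in cells highest for them it was 2.59, 1.20 and 0.69. For H2afy the values were -0.53 and -0.35.

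The genes most like each variant across the control cells were sought among 3781 genes of at least 0.5 UMIs per thinned cell. For H2afx they were Ube2c, Cdk1 and Arl6ip1 (r of 0.32, 0.25 and 0.23), and for H2afz Npm1, Eif5a and Spp1 (0.31, 0.29 and 0.28). For H3f3a they were the ribosomal protein genes Rpl7, Rplp0 and Rps13 (0.26, 0.24 and 0.24), and for H3f3b the clustered histone genes Hist1h2ap, Hist1h1b and Hist1h2ae (0.21, 0.19 and 0.18). The 2 genes for H3.3 thus had different nearest genes. For H1f0 (Hist1h1e, 0.12), H2afy (Slc25a4, 0.15), H2afv (Dppa5a, 0.13) and H1fx (Prmt7, 0.08) the highest r was weak and is no finding. Between pairs of variants r reached 0.20 at most, for H2afz and H2afx at 3 h.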

How the data were processed

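UMI counts per gene and barcode, per the file headers and the submitters' processing notes written by Cell Ranger 4.0.0 on mm10, were deposited unfiltered for 6794880 barcodes and 32285 genes. The annotation release and the handling of reads shared between genes are not given in the sources used here. Of the gene identifiers, 32235 matched GENCODE M21 (GRCm38), which gave positions and transcripts. Promoter windows came from RefSeq.

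The genes and gene lists were chosen with earlier results of these data known. Cells were barcodes of at least 15000 UMIs with 1 to 20% mitochondrial UMIs, which held 87.3%, 92.8% and 92.9% of the UMIs of the control, 3 h and 6 h libraries (111447486, 106842407 and 140321458 UMIs in cells). The lower limit left out 62, 1 and 8 barcodes and the upper limit 0. No doublet caller was run. Counts were summed over the cells of each library and scaled to CPM. Log2 ratios used a prior of 0.5 counts, with exact conditional binomial intervals, and levels had exact Poisson intervals, both at 95% and for counting error only. A ratio past 1.5-fold was called. With 1 library per group there was no test, and leaving out a replicate was not possible.

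For comparisons between cells, each cell was thinned to 15000 UMIs without replacement. Correlations used log counts plus 1. Named genes were the 8 variants, fixed chaperone and variant genes (Hira, Atrx, Daxx, Srcap, Ep400, Ino80, Anp32e, Cenpa, H2afj and H2afy2), the 3 highest and 3 lowest at 6 h over the chaperone and variant lists, and the 3 genes nearest to each variant. Alternatives were TMM factors, UMIs per cell, a prior of 5 counts, cell minimums of 10000 and 25000 UMIs, other mitochondrial limits, leaving out cells of over 2 times their library's median depth, subtraction of free RNA, a fold of 2, other floors, other thinnings and Spearman's rho. The scripts were tested on simulated data. Python 3.11.15, numpy 2.4.6, scipy 1.17.1, pandas 2.3.3, matplotlib 3.10.9, R 4.3.3 and edgeR 4.0.16 were used.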

Additional observations from a re-analysis of the deposited data

Results flagged for a closer look

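H3f3a had a log2 ratio to control of opposite sign in the treated libraries, -0.026 at 3 h and 0.070 at 6 h, so that 6 h stood 0.10 above 3 h. H3f3a did not pass the fold in either comparison, and TMM factors (-0.085 at 6 h) and UMIs per cell (0.24 at 3 h) each gave both ratios the same sign. With 1 library per group the difference was not tested.

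H2afx was lower in the control cells with the most S phase list counts than in those with the fewest (log2 -0.32) and higher in such cells of the 6 h library (log2 0.11), a difference of 0.43 between the libraries. It was drawn from cells of 1 library per group, so this difference was not tested either.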

How the results depend on the processing

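No paired analysis was possible because each group had 1 library, and no replicate could be left out. The count of variants past 1.5-fold at 3 h was 1 and became 3 with mean UMIs per cell, where H3f3b (log2 0.67) and H1fx (0.83) joined H1f0. At 6 h against 3 h the count was 1 and became 0 with TMM factors, 0 with mean UMIs per cell and 0 with a fold of 2. At 6 h against control the count was 3 in every alternative but a fold of 2, which gave 2, and TMM factors put H2afy (lower) in the place of H3f3b. Each alternative was computed for 24 log2 ratios. TMM factors turned the sign of 2 of them (H2afv at 3 h, -0.049, and H3f3a at 6 h, -0.085), and UMIs per cell turned 4 (H2afz at 3 h, 0.25, H3f3a at 3 h, 0.24, H2afx at 6 h, 0.10, and H3f3a at 6 h against 3 h, -0.065). The other 7 alternatives turned none. The share of all genes past the fold was 10.1% at 3 h, 21.8% at 6 h and 2.72% at 6 h against 3 h with a floor of 50 CPM, and 33.6%, 46.6% and 22.6% over 19112 genes with a count in every library. Of 504 recomputed correlations 72 changed sign, all of them at 0.0452 or less in size. Of 144 recomputed values of the excess squared coefficient of variation 0 changed sign, but the largest shift was 0.749. The intervals cover counting error and leave out variation between libraries, of which each group had 1. Differences in culture, freezing or library preparation cannot be told apart from those of the treatment.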
